A study of Mus musculus with 2 samples.

Results

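Complex I, the NADH:ubiquinone oxidoreductase of the inner mitochondrial membrane, is read here through 44 nuclear genes whose symbol starts with Nduf, out of 24318 named genes in a table comparing EdU-labelled dentate gyrus nuclei of Kmt2d mutant and wild-type mice. Genes were taken by symbol alone, in a family that was picked with earlier results of these data known. The family was split into 6 core subunits (Ndufs1, Ndufs3, Ndufs7, Ndufs8, Ndufv1 and Ndufv2), 31 other subunits and 7 Ndufaf assembly factors. It held 1 gene that is now assigned to cytochrome c oxidase (Ndufa4) and that gene's relative Ndufa4l2, which are given apart where the arms of the enzyme are compared.

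The mutant library came from Kmt2d +/mut mice, a heterozygous line that the series' design text writes as Kmt2d+/Bgeo, and is named mutant for short, and the other came from wild-type mice. All mice were 8 weeks old and had received EdU, a thymidine analogue taken up in S phase, by intraperitoneal injection at 150 mg/kg, 16 h before the dentate gyrus was dissected. EdU-positive nuclei were sorted, and each genotype gave 1 Smart-seq2 library of 500 nuclei pooled from 3 mice, so the spread between mice cannot be seen and no difference below has a replicate check. Values are FPKM per gene, that is, fragments corrected for the length of the transcript and the size of the library.

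Complex I takes electrons from NADH and hands them to ubiquinone, pumping protons across the membrane as it does so. It is L-shaped: the matrix arm carries the NADH site and a chain of iron-sulfur clusters that ends at the ubiquinone site, and the membrane arm holds the proton pumps, whose own core proteins are encoded by mitochondrial DNA. The accessory subunits surround this core, and assembly factors build the modules and leave before the enzyme is finished. In the adult hippocampus, stem cells lean on glycolysis and fatty acid use, and dependence on oxidative phosphorylation grows as they become neurons.

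Kmt2d, which encodes a methyltransferase of histone H3 lysine 4 (mm10, chromosome 15, 98831669 to 98874077), was read at 23.5 FPKM in mutant nuclei and at 34.7 in wild-type nuclei, 67.8% of the wild-type value. The FPKM of all named genes summed to 390074 in mutant nuclei and 442065 in wild-type. Most low FPKM values lay near whole steps of 1 fragment, which put the depth at about 216000 fragments in mutant nuclei and 218000 in wild-type, provided that FPKM was scaled to the total of the same library. Among markers of the labelled tissue, Nes, Prox1 and Neurog2 were listed at 0 in both libraries. Summed stem cell markers stood at 1012 FPKM in mutant nuclei and 715 in wild-type (5 and 4 of 6 genes above 0), and progenitor and cycling markers at 444 and 102 (5 and 4 of 7). Immature neuron markers stood at 187 in mutant nuclei and 666 in wild-type (4 of 5 above 0 in each), of which Tac2 held 48.0 and 351, while Dcx ran the other way, with 51.1 in mutant nuclei and a listed 0 in wild-type, and is called higher in the authors' deposited table (q = 0.0263). Of the other markers given here, the authors' deposited table calls Insm1 and Olig2 higher and Calb1 lower. The stem cell sum likewise hides Hes5, at 42.8 FPKM in mutant nuclei and 177 in wild-type. The sum of granule neuron markers was 1445 FPKM in mutant nuclei and 1622 in wild-type (6 and 7 of 8). Markers of the oligodendrocyte lineage summed to 1282 FPKM in mutant nuclei and 742 in wild-type (5 and 4 of 6 above 0), of astrocytes to 3.14 and 70.1 (1 and 2 of 3), of microglia to 85.9 and 59.8 (1 and 2 of 4), and the 3 endothelial markers were at 0 in both. The part of these differences in the complex I values was not tested, and in pooled nuclei fewer cells of a type and less RNA per cell cannot be told apart.

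Most of the core was read lower in mutant nuclei, while the other subunits ran both ways. Of the 6 core subunits, 4 were at least 2-fold lower in mutant nuclei or listed at 0 there, 1 was within 2-fold and 1 was listed at 0 in wild-type. Their FPKM summed to 228 in mutant nuclei and 514 in wild-type, 44.4% of the wild-type sum. Over the whole family 37 of 44 genes reached 1 FPKM in a library. Of these, 18 were lower by the same reading, where 44.5% of the 7902 named genes over that minimum were, and 11 were higher, where 40.9% of all such genes were. The core's 4 of 6 and the family's 48.6% lower and 29.7% higher are to be read against that background. In it most genes stand 2-fold or more apart. None of the 6 core genes is called in the authors' deposited table, where 14.2% of all tested named genes are called lower and 12.8% higher.

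**Figure D1:**
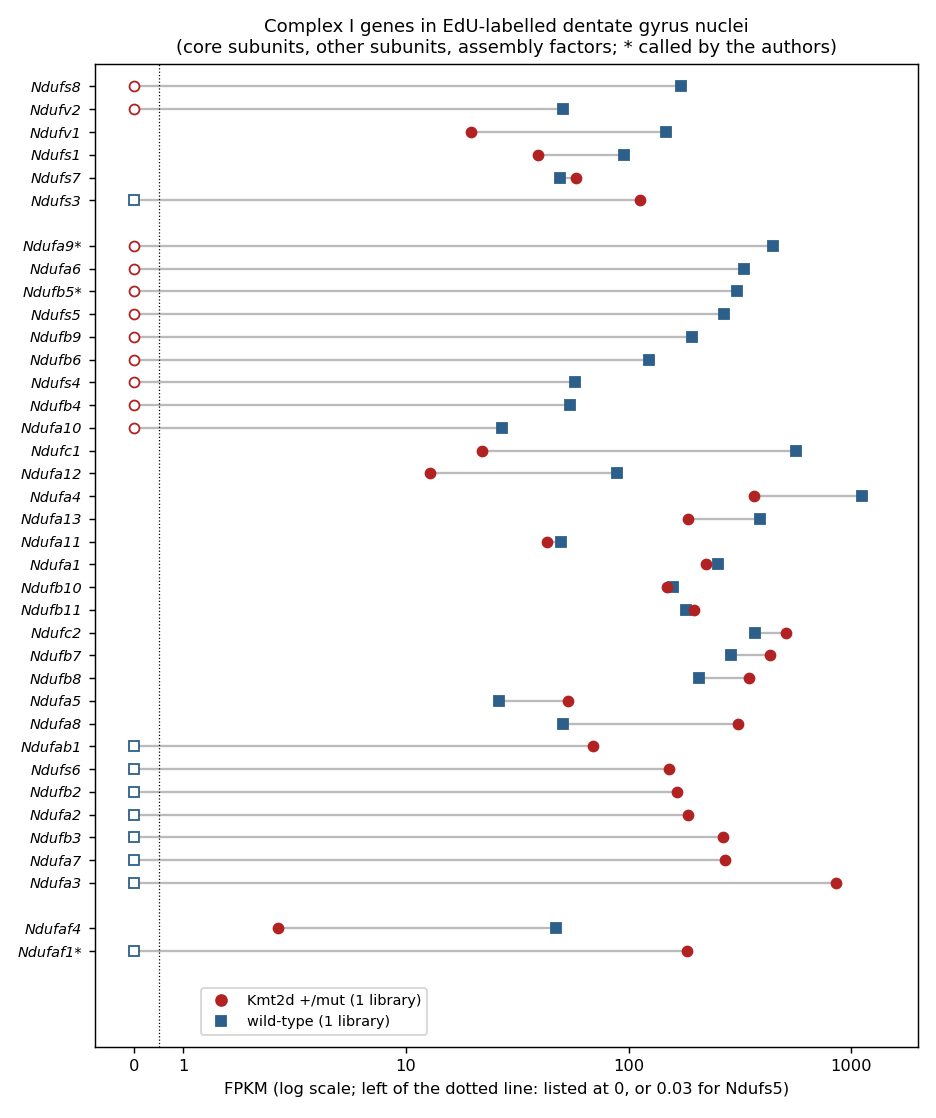
FPKM of the 37 complex I genes with a value above 0 (horizontal log axis) in the Kmt2d +/mut library (circles) and the wild-type library (squares), with core subunits on top, other subunits in the middle and assembly factors at the bottom; open symbols are listed at 0 (or 0.0261 for Ndufs5), and an asterisk marks a call in the authors' deposited table. Of the 6 core subunits, 4 have the circle well left of the square, and the other subunits show both orders.

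Of the core subunits of the NADH-oxidising tip, all 3 were lower in mutant nuclei, as were 44.5% of all named genes over the minimum. Ndufv1, which binds FMN and NADH (chromosome 19, 4007499 to 4012755), was read at 19.5 FPKM in mutant nuclei against 148 in wild-type, a 7.57-fold difference. Ndufs1, the largest subunit and the carrier of several iron-sulfur clusters (chromosome 1, 63143592 to 63176822), had 39.0 FPKM in mutant nuclei and 95.3 in wild-type. Ndufv2, an iron-sulfur protein beside Ndufv1 (chromosome 17, 66078795 to 66101559), was listed at 0 in mutant nuclei against 50.7 FPKM in wild-type. The authors' deposited table gives these 3 genes q-values of 0.609 for Ndufv1, 0.709 for Ndufs1 and 0.369 for Ndufv2, so none is called.

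The core subunits of the ubiquinone-reducing part did not share a direction. Ndufs8, an iron-sulfur subunit (chromosome 19, 3908863 to 3912774), was at a listed 0 in mutant nuclei against 171 FPKM in wild-type. Ndufs7, which holds the last cluster of the chain (chromosome 10, 80249105 to 80256794), was close in the libraries, with 57.9 FPKM in mutant nuclei and 48.9 in wild-type, although the table's locus for it, 79697304 to 80369637, reaches far beyond the gene. Smaller overhangs included those of Ndufs1, whose locus in the table starts at 63114470, and of Ndufb11, whose locus ends at 20650905 on chromosome X. The locus of Ndufa2, an other subunit, starts at 36735069 on chromosome 18, where RefSeq's start is 36742332. Ndufs3, a structural core subunit (chromosome 2, 90894627 to 90904721), went the other way, with 112 FPKM in mutant nuclei and a listed 0 in wild-type. None is called, and the q-values in the authors' deposited table were 0.369 for Ndufs8, 0.92 for Ndufs7 and 0.355 for Ndufs3.

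The depth behind these values was modest. On the estimated scale, Ndufv1 rested on about 6.2 fragments in mutant nuclei and 47.5 in wild-type, Ndufs1 on 20.8 and 51.4, and Ndufs7 on 7.1 and 6.1. The core genes listed at 0 in mutant nuclei rested on about 29.7 fragments in wild-type for Ndufs8 and 16.7 for Ndufv2, and Ndufs3 on 20.6 in mutant nuclei. With the shortest annotated transcript in place of the longest, a choice made after seeing the data, Ndufv2 would rest on about 8.2 fragments in wild-type and Ndufs8 on 22.1. These are fragments after PCR without molecular identifiers and are not separate molecules. Some core genes also share sequence: the exons of Ndufs1 overlap Eef1b2, read at 2.64 FPKM in mutant nuclei and 75.7 in wild-type, and Ino80dos, read the other way at 16.6 and 3.28, and Ndufs3 has 1 near-identical transcript elsewhere in the annotation.

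The authors' deposited table tested 34 of the 44 genes and calls 3, of which 2 are lower in mutant nuclei and 1 is higher, each at q = 0.029. The background of calls over its 3248 tested named genes is 14.2% lower and 12.8% higher, against 5.88% and 2.94% of the tested complex I genes. The genes called lower are Ndufa9, an NADPH-binding subunit near the junction of the arms (chromosome 6, 126821863 to 126849144), at a listed 0 in mutant nuclei against 444 FPKM in wild-type, and Ndufb5, a membrane arm subunit (chromosome 3, 32737057 to 32751559), at a listed 0 against 307. The gene called higher is Ndufaf1, an assembly factor of the membrane arm (chromosome 2, 119655446 to 119662839), with 183 FPKM in mutant nuclei and a listed 0 in wild-type. All 3 were listed at 0 in 1 library. Of the 34 tested genes 18 were so listed (52.9%, against 43.8% of all tested genes), and the 15 others of these were not called. Besides the 3 called genes, Ndufa3 (p = 0.0365) and Ndufa6 (p = 0.049) have an unadjusted p under 0.05 in the authors' deposited table (q = 0.175 for Ndufa3 and 0.224 for Ndufa6).

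The promoters of the 3 called genes and of a pair of core genes that stood at opposite ends show what sequence lies at these starts. Each run is a RefSeq window on GRCm38.p6, the assembly of mm10, from 250 bases before to 50 bases after the annotated start, 5′ to 3′ on the gene's strand. Capitals mark exact matches, on either strand, to short core letters of factors known to act at mitochondrial gene promoters: GCGCATGC for NRF1, CCGGAAG for ETS factors such as GABPA, AAGATGG for YY1 and AAGGTCA for estrogen-related receptors. Matches were searched separately for each motif, so overlapping ones would count for both.
Ndufs8, minus strand, chr19:3912725-3913024: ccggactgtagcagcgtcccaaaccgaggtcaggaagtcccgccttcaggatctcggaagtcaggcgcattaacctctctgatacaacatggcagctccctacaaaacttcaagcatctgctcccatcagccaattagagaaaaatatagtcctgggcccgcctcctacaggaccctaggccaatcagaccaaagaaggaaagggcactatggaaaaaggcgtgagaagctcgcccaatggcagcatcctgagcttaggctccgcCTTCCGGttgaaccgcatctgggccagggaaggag
Ndufs3, minus strand, chr2:90904672-90904971: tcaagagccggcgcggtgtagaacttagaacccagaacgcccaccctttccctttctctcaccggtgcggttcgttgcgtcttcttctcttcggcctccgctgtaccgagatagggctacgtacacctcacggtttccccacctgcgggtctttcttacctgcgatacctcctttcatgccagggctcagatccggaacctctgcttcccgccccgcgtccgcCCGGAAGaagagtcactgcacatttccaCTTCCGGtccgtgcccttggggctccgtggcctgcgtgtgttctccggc
Ndufa9, minus strand, chr6:126849095-126849394: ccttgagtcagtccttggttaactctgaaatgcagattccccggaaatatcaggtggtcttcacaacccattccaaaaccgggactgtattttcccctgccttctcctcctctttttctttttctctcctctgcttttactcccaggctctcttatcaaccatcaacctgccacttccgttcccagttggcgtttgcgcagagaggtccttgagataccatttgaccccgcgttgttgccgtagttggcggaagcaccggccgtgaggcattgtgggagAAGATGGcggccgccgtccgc
Ndufb5, plus strand, chr3:32736813-32737112: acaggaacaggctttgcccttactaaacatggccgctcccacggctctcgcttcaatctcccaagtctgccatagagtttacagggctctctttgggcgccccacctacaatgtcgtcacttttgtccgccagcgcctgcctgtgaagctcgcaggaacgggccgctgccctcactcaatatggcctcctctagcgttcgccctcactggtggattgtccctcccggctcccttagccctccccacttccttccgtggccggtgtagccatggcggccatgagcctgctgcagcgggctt
Ndufaf1, minus strand, chr2:119662785-119663084: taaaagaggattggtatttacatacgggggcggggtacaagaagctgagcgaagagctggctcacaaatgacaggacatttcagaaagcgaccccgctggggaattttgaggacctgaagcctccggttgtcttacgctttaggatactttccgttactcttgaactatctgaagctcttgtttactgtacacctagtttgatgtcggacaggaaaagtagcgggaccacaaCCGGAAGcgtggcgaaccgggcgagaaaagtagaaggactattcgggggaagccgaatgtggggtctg

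The ETS letters occurred in both core promoters, once in Ndufs8 (starting 15 bases after the start), which was at a listed 0 in mutant nuclei, and at 2 places in Ndufs3 (27 bases before and 1 base after the start), which was at a listed 0 in wild-type. They also occurred 18 bases before the start of Ndufaf1, and the YY1 letters 29 bases after that of Ndufa9, while Ndufb5 had none of the 4 motifs. Of the 44 genes 39 had a window. The NRF1 letters were in 5 of the 39 (12.8%) and in 3.05% of the 27025 genes with a window, or 6.4% of those over 1 FPKM in a library. The ETS letters were in 5 (12.8%), against 9.93% of all genes and 20.5% of those over 1 FPKM. The YY1 letters were in 7 (17.9%), against 7.28% and 9.09%, and the estrogen-related receptor letters in 3 (7.69%), against 5.38% and 3.65%. The letters GGGCGG for SP1 and CCAAT for NFY were also searched but are not marked above. The SP1 letters were in 20 (51.3%), against 38.2% and 69.5%, and the NFY letters in 13 (33.3%), against 41.1% and 42.3%. Among the 16 lower genes with a window 3 held the YY1 letters, 2 the NRF1, 2 the ETS and 2 the estrogen-related receptor letters, and among the 10 higher genes these counts were 2, 1, 2 and 1.

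Of the 8 other subunits of the matrix arm over the minimum, 75% were listed at 0 in 1 library, as were 59.7% of all named genes over it. Ndufa6, a small protein that docks an acyl carrier protein onto the arm, was at a listed 0 in mutant nuclei against 331 FPKM in wild-type, and so was Ndufs4, which helps hold the NADH-oxidising tip in place, against 57.7. Ndufa12, attached late at that tip, was at 12.8 FPKM in mutant nuclei and 88.8 in wild-type. With Ndufa9 these were the 4 lower genes of 8 over the minimum. In the other direction, Ndufa7 (270.3 FPKM), Ndufa2 (184) and Ndufs6 (152), which is needed for the tip to join, were read in mutant nuclei and listed at 0 in wild-type. Ndufa5 had 53.2 FPKM in mutant nuclei and 26.2 in wild-type, a ratio of 2.03 that rests on about 7.8 and 3.9 fragments, or 1.4 and 0.7 with its shortest annotated transcript. Ndufv3 was listed at 0 in both. Beside Ndufs6, the overlapping gene Mrpl36 stood the opposite way, at a listed 0 in mutant nuclei and 233 FPKM in wild-type, with a call of lower for Mrpl36 in the authors' deposited table.

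In the membrane arm, where 19 genes were over the minimum, 7 were within 2-fold. Ndufc2 was at 509 FPKM in mutant nuclei and 370 in wild-type, Ndufb7 at 432 and 289, and Ndufb8 at 346 and 207. Ndufb11, Ndufb10 and Ndufa1 were nearer still, with 197, 149 and 222 FPKM in mutant nuclei and 181, 157 and 251 in wild-type, as was Ndufa11 with 42.8 and 49.6. These 7 genes came from several parts of the arm, Ndufb7 and Ndufb10 from its face in the intermembrane space. None of the 7 carries a call in the authors' deposited table, and Ndufa11 was not tested there. Of all tested named genes, 14.2% are called lower and 12.8% higher.

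Membrane arm genes that differed were found on both sides. Ndufc1, a small membrane-spanning subunit, was at 21.9 FPKM in mutant nuclei and 562 in wild-type, but its transcript of 315 bases makes the mutant value worth an estimated 0.6 fragments. Ndufs5, on the intermembrane space side, had 0.0261 FPKM in mutant nuclei, far below the value of 1 fragment, against 267 in wild-type, so no fold is given. Ndufa13, also known as GRIM-19, had 184 FPKM in mutant nuclei and 389 in wild-type (47.3%). Like Ndufb5, 4 further genes were listed at 0 in mutant nuclei, against 192 FPKM for Ndufb9, 123 for Ndufb6, 54.4 for Ndufb4 and 26.9 for Ndufa10 in wild-type. On the other side, Ndufa8, an intermembrane space subunit, was at 308 FPKM in mutant nuclei and 50.7 in wild-type, a 6.08-fold difference. Ndufa3 (854 FPKM), Ndufb3 (266) and Ndufb2 (165) were read in mutant nuclei and listed at 0 in wild-type.

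The arms are set beside each other without a test, against 59.7% of all named genes over the minimum listed at 0 in 1 library and 14.6% within 2-fold. In the matrix arm, core included, 8 of 14 genes over the minimum were lower, 5 higher and 1 within 2-fold, and 64.3% were listed at 0 in 1 library. In the membrane arm 8 of 19 were lower, 4 higher and 7 within 2-fold, and 42.1% were listed at 0 in 1 library. Summed FPKM of the matrix arm was 901 in mutant nuclei and 1461 in wild-type (61.6%), and of the membrane arm 3697 and 3477 (106%). The membrane arm sum without Ndufa3 was 2843 in mutant nuclei and 3477 in wild-type (81.8%), and the matrix arm sum without Ndufa9 was 901 and 1017 (88.5%). Single genes, left out after their values were seen, thus set the contrast between these sums. Membrane arm genes were also read at higher levels, with a median of 209.9 FPKM among values above 0 in mutant nuclei against 57.9 for the matrix arm, and 199.6 against 92.0 in wild-type. Whether this difference in level bears on the values of the arms was not tested.

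**Figure D2:**
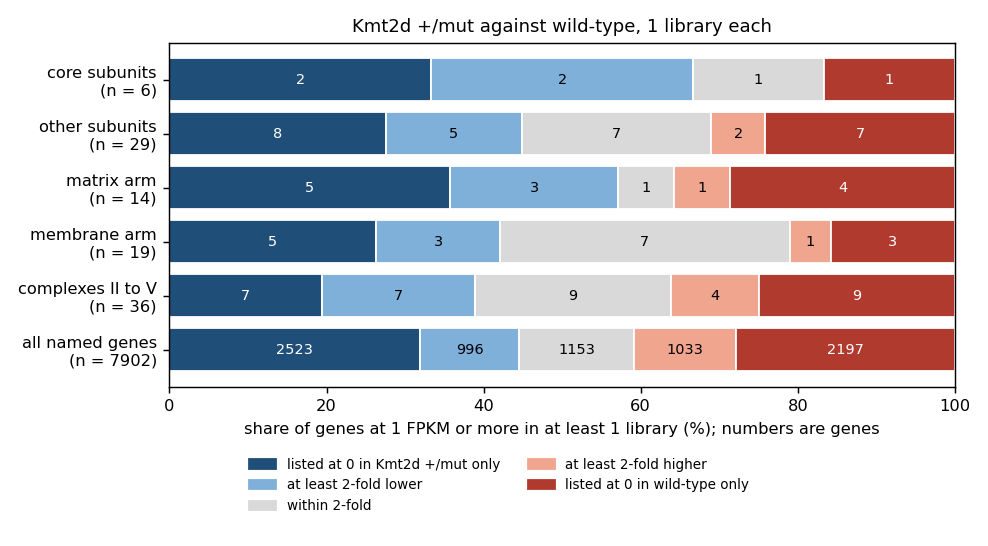
Share of genes at 1 FPKM or more in at least 1 library (horizontal axis, %) by their reading in Kmt2d +/mut against wild-type, for groups of complex I genes, nuclear genes of complexes II to V and all named genes; the numbers in the bars are genes. The core bar has 4 of 6 genes in the lower classes, and the membrane arm has the widest class within 2-fold of the bars shown (7 of 19).

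Ndufab1 and Ndufa4 belong to neither arm alone. Ndufab1, the mitochondrial acyl carrier protein, sits in both arms and was read at 69.1 FPKM in mutant nuclei and listed at 0 in wild-type, and 2 other annotated genes are near-identical to part of its transcript. Ndufa4 had the highest mean of the family, with 367 FPKM in mutant nuclei and 1117 in wild-type (32.8%, about 33.2 and 102.4 fragments). Ndufa4l2, its relative that is induced by low oxygen, was listed at 0 in both libraries. Neither Ndufab1 (q = 0.369) nor Ndufa4 (q = 0.611) is called in the authors' deposited table.

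Of the 7 assembly factors with an Ndufaf symbol, 5 were listed at 0 in both libraries, as were 16280 of all 24318 named genes. The 5 are Ndufaf2, a late factor related to Ndufa12, Ndufaf3, which acts early with Ndufaf4, Ndufaf5, which modifies Ndufs7, Ndufaf7, a methyltransferase, and Ndufaf6. Of the 37 subunits 2 were so listed (Ndufv3 and Ndufa4l2). The other two factors stood on opposite sides. Ndufaf1 was called higher, as given above, and Ndufaf4 had 2.67 FPKM in mutant nuclei and 47.3 in wild-type, about 2 and 35.6 fragments, and was not tested by the authors.

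Of 11 further assembly factors without an Nduf symbol, 10 were in the table. Foxred1, an oxidoreductase needed to build the enzyme, had 112 FPKM in mutant nuclei and a listed 0 in wild-type, a difference called in the authors' deposited table (q = 0.029). Ecsit, a partner of Ndufaf1 in one assembly complex, was at 32.1 FPKM in mutant nuclei and 3.52 in wild-type. Other partners of that complex ran the opposite way, with Acad9 and Timmdc1 listed at 0 in mutant nuclei against 25.5 and 9.63 FPKM in wild-type, and Tmem126b and Tmem186 were listed at 0 in both libraries. Tmem70 (29.9 FPKM) and Dmac2 (18.1, as Atp5sl) were read in mutant nuclei and listed at 0 in wild-type, Dmac1 (as Tmem261) had a listed 0 in mutant nuclei and 52.4 in wild-type, and Nubpl was at 0 in both. In all, 7 of the 10 were over the minimum, with 4 higher and 3 lower in mutant nuclei. Of all named genes over the minimum, 40.9% were higher and 44.5% lower. The authors' deposited table tested 2 of the 10 and calls 1 higher, where 12.8% of all tested named genes are called higher. The complex I genes of mitochondrial DNA (mt-Nd1 to mt-Nd6) were looked up by symbol and not found among the named genes, so no values are given for them.

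**Figure D3:**
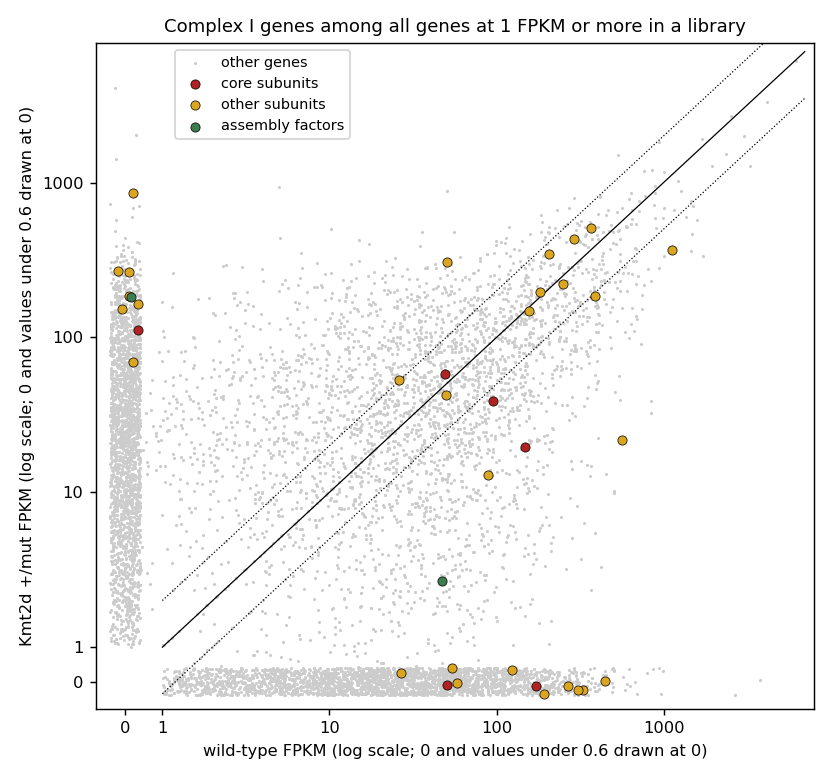
FPKM in Kmt2d +/mut (vertical log axis) against wild-type (horizontal log axis) for the 7902 named genes at 1 FPKM or more in a library (grey) and the complex I genes among them (coloured by class), with values of 0 and under 0.6 spread along the edges, the solid line at equal values and dotted lines at 2-fold. Of the complex I genes, 10 lie along the lower edge (listed at 0 in Kmt2d +/mut), 9 along the left edge (listed at 0 in wild-type) and 18 are above 0 in both, 1 of these (Ndufs5) drawn at the lower edge.

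Of the 7902 named genes at 1 FPKM or more in a library, 31.9% had a 0 in mutant nuclei alone and 27.8% in wild-type alone, and of the 37 such complex I genes 10 and 9 did. Both libraries had a value above 0 for 18 complex I genes, 8 of them lower by 2-fold or more in mutant nuclei and 2 higher by as much, while over the 3182 named genes above 0 in both these shares were 31.3% and 32.5%. The median log2 ratio of mutant over wild-type, with 1 FPKM added to each value, was -0.21 over the 37 complex I genes and -0.23 over all 7902. Over genes above 0 in both libraries it was -0.19 for the 18 complex I genes and 0.02 for all. By class the median was -2.06 for the 6 core subunits and -0.17 for 29 other subunits, which turned to 0.01 with both libraries scaled to the same FPKM sum. Over those above 0 in both libraries it was -1.27 for 3 core and -0.13 for 14 other subunits. Nuclear genes of complexes II to V, 48 in the table and 36 over the minimum, had 14 lower, 13 higher and 9 within 2-fold, with a median of -0.44, and 77 mitochondrial ribosomal protein genes, 45 over the minimum, had a median of -0.71. No test sets these lists apart from complex I or from all genes.

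**Figure D4:**
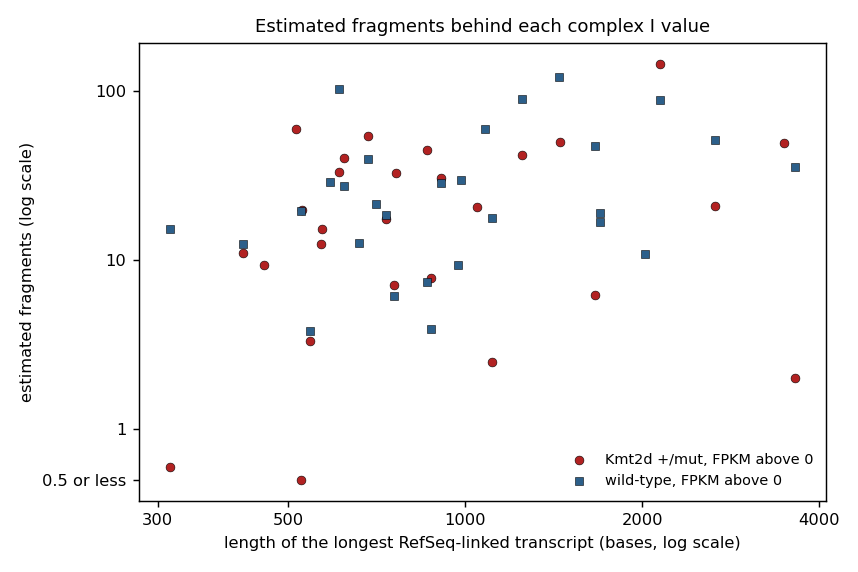
Estimated fragments behind each complex I value above 0 (vertical log axis) against the length of the gene's longest RefSeq-linked transcript (horizontal log axis) in Kmt2d +/mut (circles) and wild-type (squares). Several values rest on fewer than 10 estimated fragments, and the point at 0.5 or less is Ndufs5 in Kmt2d +/mut.

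The 19 complex I genes listed at 0 in 1 library had between 26.9 and 854 FPKM in the other, worth an estimated 9.3 to 121.7 fragments with a median of 20.6. The largest of these was Ndufa9, whose 444 FPKM in wild-type stand for about 121.7 fragments. Of the 18 genes above 0 in both, 9 had an estimated 10 fragments or more in each library. Of those 9, Ndufa1, Ndufb7, Ndufb8, Ndufb10, Ndufb11 and Ndufc2 were within 2-fold, and Ndufs1, Ndufa4 and Ndufa13 were at least 2-fold lower in mutant nuclei. This group was set after the values were seen. Exons of 18 of the 44 genes overlap another annotated gene and 9 have a near-identical transcript elsewhere, among them Ndufb3, Ndufb4 and Ndufs5. Overlaps were counted whichever strand the other gene is on. Reads of exons that overlap on opposite strands cannot be told apart with certainty in data without strand. Reads of exons that overlap on the same strand, or of near-identical stretches, cannot be told apart with certainty whether or not strand is known.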

How the data were processed

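RNA was measured in 2 pooled libraries of EdU-labelled dentate gyrus nuclei, 1 per genotype. HISAT2, Cuffnorm, Cuffdiff and the build mm10 are named in the submitters' processing notes, with versions, annotation and settings not given in the sources used here. All FPKM values used were deposited by the authors in a table of Cuffdiff layout, whose p-value and q-value columns hold the authors' own test and were copied as deposited. The table pairs 6 libraries, and the 4 that match no sample used here were left out. Of 24346 entries in the pair, 27 with a date for a name were dropped. In addition, 1 gene of the family is not reported here and was left out of every count, sum and median.

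Ratios are log2 of mutant over wild-type FPKM, each with 1 added, over genes at 1 FPKM or more in a library. They understate the differences of low genes. Counts used plain FPKM ratios, and no fold is given against a listed 0, which can be a failed estimate. With 1 library per genotype no test was made. Members, lists and alternatives were chosen with earlier results of these data known. The naming rule took every core subunit and assembly factor, the called genes, and the highest, lowest and most abundant others. The remaining genes were added after their values were seen, so that every member is given.

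Fragments were estimated from genes with 1 annotated transcript over 800 bp (GENCODE M21), in which 76.1% of 88 low values in Kmt2d +/mut and 76.3% of 114 in wild-type lay within 0.1 of a whole number when 1 fragment was worth 4.64 and 4.58 FPKM at 1 kb after taking 190 bp off the length. The method was tested on simulated data. Near-identical means at least 95% identity over 100 bases (blastn 2.17.0). Coordinates are RefSeq's on GRCm38. Python 3.11.15 and pandas 2.3.3 were used.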

Additional observations from a re-analysis of the deposited data

How the results depend on the processing

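Medians are on the log2 scale. Raising the minimum to 5 FPKM, or using none, could not change a median or count of complex I genes. Each complex I gene with a value reached at least 26.9 FPKM in a library. The same settings moved the median of all genes to -0.18 and -0.22. With a pseudocount of 0.1 the median was -2.10 for core subunits and 3.37 for assembly factors. Over genes above 0 in both libraries it was -0.19 for the family, -1.27 for core, -0.13 for other subunits and -3.72, of opposite sign, for assembly factors, where 1 gene was left, and 8 genes were lower and 2 higher. Among genes the authors tested it was -0.13, with -0.08 for other subunits and 7.53 for the 1 assembly factor. Scaling both libraries to the same FPKM sum moved the median of all genes to -0.05 and gave -0.03 for the family, -1.91 for core, 2.55 for assembly factors and 0.01, of opposite sign, for other subunits, with 17 genes lower and 11 higher. Without Ndufa4 and Ndufa4l2 it was -0.19 for the family and -0.13 for other subunits. The main values were -0.21, -2.06, -0.17 and 1.90 (2 assembly factors). Only the core median stayed below -1 under every alternative named here, but several of these could not move it. Changing the minimum, keeping tested genes and leaving out Ndufa4 and Ndufa4l2 all kept the same 6 core genes and values. Over genes above 0 in both libraries 3 core genes were left, and their median is the value of Ndufs1 alone. The shortest annotated transcript, an alternative added after seeing the data, lowers the estimated fragments of Ndufa5 by 5.48 times, Ndufb8 by 3.98, Ndufa12 by 2.45 and Ndufv2 by 2.04. Medians over so few genes can move with a single gene. No paired analysis was possible because each genotype has 1 library. With about 216000 and 218000 fragments, many genes rest on few of them, and a listed 0 cannot be told from a low level.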
